A study of Mus musculus with 16 samples.

Results

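The cytosolic ribosomal protein genes encode the protein subunits of the ribosome that translates nuclear mRNAs. They were taken as every gene symbol that begins with Rpl or Rps followed by a number, with or without a final a, x, l or y, together with Rplp0, Rplp1, Rplp2 and Rpsa. The rule found 83 of the 53679 gene symbols in the table, with 471 of its 135202 isoforms. Of these genes, 46 belonged to the large subunit, 30 to the small subunit and 7 were copies or tissue-restricted relatives whose symbol ends in l (Rps27l, Rps4l, Rpl6l, Rpl32l, Rpl3l, Rpl10l and Rpl39l). GENCODE lists 80 of the 83 as protein-coding, and Rps4l, Rpl6l and Rpl32l as processed pseudogenes.

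RNA sequencing was carried out on primary neuronal cultures (PNCs) from the cortex of wild-type mouse embryos at embryonic day 15. At day in vitro (DIV) 8 the PNCs received either vehicle (VEH) or 10 µM tianeptine (TIA), an antidepressant, and 24 h later, at DIV 9, they went through 3 h of oxygen-glucose deprivation (OGD), a cell-culture model of ischemia, or a sham procedure (CONTROL). Total RNA was taken after 6 h of reoxygenation from 4 cultures in each of the groups CONTROL-VEH (cultures 1 to 4), CONTROL-TIA (5 to 8), OGD-VEH (9 to 12) and OGD-TIA (13 to 16). The comparisons ask how OGD changes the PNC transcriptome and whether TIA pretreatment alters that change.

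Each ribosome is built from a small subunit, which decodes the mRNA, and a large subunit, which joins the amino acids, and the cell makes their proteins in matched amounts. The mRNAs of these proteins begin with a run of pyrimidines, the terminal oligopyrimidine (TOP) motif, through which mTOR signalling and the RNA-binding protein LARP1 set their translation and stability. In neurons ribosomes supply the soma as well as dendrites and axons, and several free ribosomal proteins bind Mdm2, the ubiquitin ligase of p53, when ribosome assembly is disturbed.

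Expression is given in FPKM (fragments per kilobase of transcript, scaled to the reads mapped in each library), summed over the isoforms of a gene. Differences are given on the log2(FPKM + 0.1) scale. Genes were tested with limma when their mean was at least 0.5 FPKM over the cultures compared. The adjusted p-value (padj) covers all genes tested, and differentially expressed genes (DEGs) are those with padj no higher than 0.05 whose log2 fold change is 1 or more in size. The padj values measure only the spread among these cultures. Of the 83 members, 80 passed the filter in every comparison. Rpl10l was listed at 0 in all 16 cultures, and Rpl39l and Rpl3l, a testis-expressed and a muscle-expressed relative of Rpl39 and Rpl3, had means between 0.0475 and 0.227 FPKM in the 4 groups.

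The summed FPKM of 8 neuronal markers ran from 2750 to 3270 in CONTROL-VEH, from 2790 to 2920 in CONTROL-TIA, from 1160 to 2490 in OGD-VEH and from 1630 to 2790 in OGD-TIA. Sums of 7 astrocyte markers were 723 to 1540, 617 to 791, 983 to 2470 and 728 to 1880 FPKM in the same order. Those of 7 markers of the oligodendrocyte lineage, which include Olig1 and Olig2, were 171 to 206, 152 to 189, 232 to 637 and 216 to 412 FPKM. The lineage markers did not all move with their sum. In OGD-VEH, 3 of the 6 that passed the filter exceeded their CONTROL-VEH level at limma padj of at most 0.05, Olig1 and Olig2 included. At the same threshold 1 of the 6 fell. Markers of proliferating cells (Mki67, Top2a and Cdk1) summed to 22.9 to 86.2, 31.2 to 46.9, 50.6 to 196 and 31.2 to 133 FPKM. Microglial markers summed to at most 3.03, endothelial and mural markers to at most 6.51, red blood cell markers to at most 6.34 and fibroblast markers to at most 16.7 FPKM in any culture. Cx3cr1 was listed at 0 in all CONTROL-TIA cultures, Cldn5 in all OGD cultures and Hbb-bs in all OGD-VEH cultures. Several cultures stood apart from the others of their groups in these sums. Culture 4 had an astrocyte sum of 1540 and a proliferating sum of 86.2, against at most 854 and 38.9 in the other CONTROL-VEH cultures. Culture 9 had the highest neuronal (2490) and the lowest oligodendrocyte-lineage (232) sum of OGD-VEH, and culture 12 the lowest neuronal (1160) and the highest astrocyte (2470) sum, whereas culture 16 had the lowest neuronal (1630) and the highest oligodendrocyte-lineage (412) sum of OGD-TIA. In these bulk samples fewer cells of a type and less RNA per cell cannot be told apart.

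Ribosomal protein mRNAs were among the most abundant in the PNCs. In CONTROL-VEH, 22 members were above 1000 FPKM and 68 above 100 FPKM, 15 were among the 100 most abundant symbols, and the median over the 83 was 519 FPKM. The highest were Rps29 (2746 ± 239.8 FPKM, mean ± SD, n = 4), Rpl13a (2489 ± 193) and Rpl41 (2404 ± 190.2), which encodes the smallest ribosomal protein. The means of Rpl13a and Rpl41 differed by less than the SD of either, so their order is not resolved. Among the members that passed the filter in this group the lowest were Rps27 (5.00 ± 3.55 FPKM) and Rpl17 (21.5 ± 3.21). Both low values depend on how reads were divided. The main isoform of Rps27 was listed at 0. Pseudogenes named after Rpl17 held 94.6% of the mean FPKM of gene and pseudogenes together. Rpl32l was listed at 0 in all 4 CONTROL-VEH cultures. The members varied little between replicates. The median over 76 subunit genes of the SD of log2 values was 0.123 in CONTROL-VEH, 0.127 in CONTROL-TIA, 0.202 in OGD-VEH and 0.138 in OGD-TIA, against 0.241, 0.189, 0.328 and 0.269 over all genes.

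Of the 471 member isoforms, 218 are annotated as protein-coding, 168 as retained introns, 60 as processed transcripts and 22 as targets of nonsense-mediated decay. Protein-coding isoforms took 63.6% ± 0.31 (SD, n = 4) of the summed member FPKM in CONTROL-VEH and 63.5% ± 0.29 in OGD-VEH. Retained introns took 19.9% ± 0.39 and 19.9% ± 0.30. Both classes differed between these groups by less than the spread among cultures. Processed transcripts took 9.74% ± 0.12 in CONTROL-VEH (9.63% to 9.86%) and 9.37% ± 0.15 in OGD-VEH (9.21% to 9.57%), without overlap, and 9.37% ± 0.10 in CONTROL-TIA and 9.41% ± 0.17 in OGD-TIA. Isoforms marked for nonsense-mediated decay took 6.47% ± 0.16 in CONTROL-VEH (6.36% to 6.70%) and 6.98% ± 0.19 in OGD-VEH (6.85% to 7.26%), without overlap, and 6.80% ± 0.20 in CONTROL-TIA and 6.94% ± 0.09 in OGD-TIA. These shares rest on the split of reads among isoforms estimated by eXpress, which divides reads that fit several isoforms or pseudogenes by probability. Rps27 shows the limit of that split, because its main isoform of 345 bases was listed at 0 in every culture.

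RefSeq promoters (GRCm38.p6) were found for 61 of the 83 members. The windows around the annotated start are shown for the 1 member that was a DEG (Rps27l), the 3 called members described next (Rps16, Rps6 and Rpl7a) and the subunit gene with the smallest difference after OGD (Rpl4). Capitals mark runs of at least 6 C or T on the strand of the gene, the letters of which a TOP motif is made. They lie at chr9:66946056-66946115 on the plus strand, chr7:28350659-28350718 (plus), chr4:86857338-86857397 (minus), chr2:26910777-26910836 (plus) and chr9:64173357-64173416 (plus).
Rps27l: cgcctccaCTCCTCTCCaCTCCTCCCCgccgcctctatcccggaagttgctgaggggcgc
Rps16: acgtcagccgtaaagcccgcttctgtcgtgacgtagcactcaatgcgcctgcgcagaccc
Rps6: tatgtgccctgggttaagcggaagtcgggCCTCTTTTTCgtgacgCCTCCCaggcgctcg
Rpl7a: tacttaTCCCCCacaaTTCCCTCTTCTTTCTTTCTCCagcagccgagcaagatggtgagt
Rpl4: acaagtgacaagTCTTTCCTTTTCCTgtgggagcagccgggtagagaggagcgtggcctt
Rps27l, Rps6, Rpl7a and Rpl4 had such a run in the window shown and Rps16 had none. The annotated start is not marked in the windows, and a run may lie before it, so these runs are not all TOP motifs. Over all 73 promoter entries of the members, 63.0% held a run of at least 9 C or T between positions -15 and 49 (counted from 0 at the annotated start base), against 15.6% of all 32851 promoters. CGGAAG, the core of the sites bound by ETS-family factors, was found on either strand in 60.3% of member promoters and in 16.9% of all promoters. TATAAA was found in 9.59% against 13.6%, and CACGTG, the E-box bound by Myc, in 10.96% against 7.15%. The 6-letter motifs were searched over the whole window of each entry on both strands.

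A single value per culture was taken as the median, over the 80 members, of the log2 difference from the CONTROL-VEH mean. It was 0.05, -0.12, -0.02 and 0.09 in the CONTROL-VEH cultures and 0.07, -0.16, -0.07 and -0.12 in CONTROL-TIA. OGD-VEH gave 0.17, 0.49, 0.45 and 0.62, and OGD-TIA gave 0.15, 0.11, 0.08 and 0.32. All 4 OGD-VEH cultures lay above every CONTROL culture, with culture 9 nearest to them. All 4 OGD-TIA cultures lay above every CONTROL-TIA culture (0.080 at the lowest against 0.071 at the highest). In OGD-TIA, cultures 14 and 15 lay within or next to the highest CONTROL-VEH value and culture 16 lay above OGD-VEH culture 9. The 83 members together took 5.41% ± 0.23 (SD, n = 4) of the summed FPKM in CONTROL-VEH, 5.21% ± 0.19 in CONTROL-TIA, 6.97% ± 0.61 in OGD-VEH and 6.01% ± 0.45 in OGD-TIA. The share was 5.72% to 6.68% in the OGD-TIA cultures and at most 5.63% in any CONTROL culture. In the OGD groups the cell type sums differed along with the single value per culture. Culture 12, the highest of OGD-VEH, had a neuronal sum of 1160 and an astrocyte sum of 2470 FPKM, whereas culture 9, the lowest, had 2490 and 983 FPKM. Culture 16, the highest of OGD-TIA, had 1630 and 1880 FPKM. In CONTROL-VEH the neuronal sums did not follow that order, as culture 4 had the highest value of the group together with the highest neuronal sum (3270) and the highest astrocyte sum (1540). The part of the cell type sums in the ribosomal protein values was not tested.

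**Figure D1:**
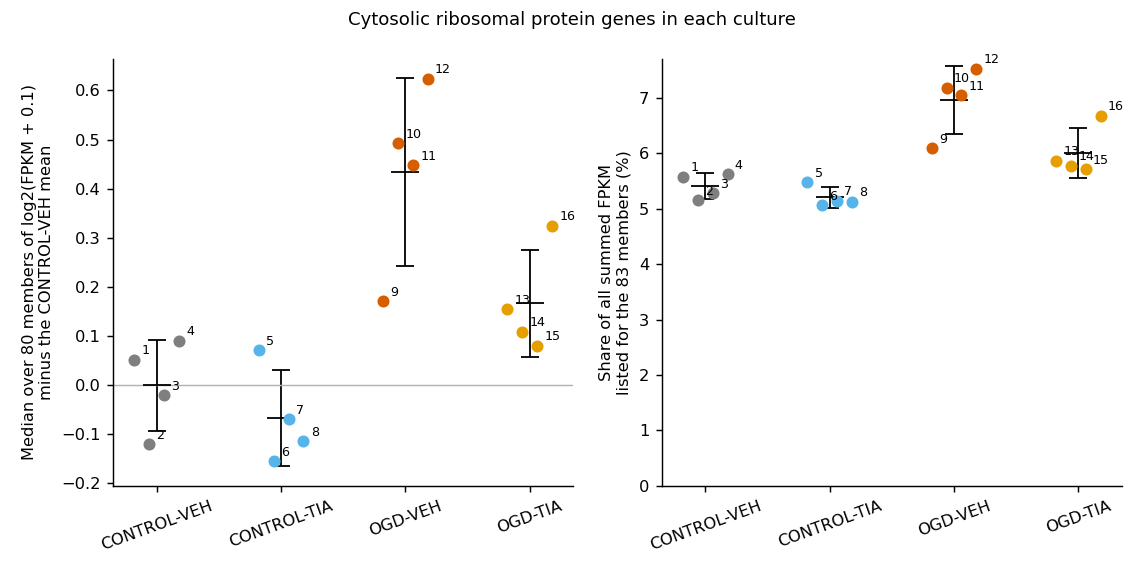
Ribosomal protein genes in each of the 16 cultures (points, numbered), with the mean and SD of each group (bars, n = 4). Left, the median over 80 members of the log2 difference from the CONTROL-VEH mean. Right, the share of the summed FPKM of all genes listed for the 83 members, in percent. OGD-VEH cultures 10, 11 and 12 lie highest in both panels, OGD-VEH culture 9 and OGD-TIA culture 16 lie between them and the CONTROL cultures. OGD-TIA cultures 13 and 14 also lie above every CONTROL culture in both panels, and culture 15 in the right panel.

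After OGD without TIA many ribosomal protein mRNAs were higher. In OGD-VEH compared with CONTROL-VEH, 34 of 80 members tested had a padj of at most 0.05, and all 34 rose. Over all 16346 genes tested, 8.44% passed this threshold, 4.99% as higher and 3.45% as lower. The log2 fold change was above 0 for 79 of the 80 members, against 58.2% of all genes, and its median was 0.44 (1.35-fold) over the members and 0.10 over all genes. The quartiles of the members were 0.36 and 0.54. In 49 of the 80 members all OGD-VEH cultures lay above all CONTROL-VEH cultures, which held for 12.7% of all genes. Both subunits took part, with 20 of 46 large-subunit and 13 of 30 small-subunit genes called and medians of 0.42 and 0.46.

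The count of 34 depended on the cultures included. Without culture 9 it was 71, and without any other single culture (1, 2, 3, 4, 10, 11 or 12) it was 0, whereas the log2 fold change stayed above 0 for 79 of 80 members (78 of 79 without culture 11) and its median stayed between 0.37 and 0.53. The number of all genes called fell in step, from 1380 to between 1 and 106 in the fits with 0 members called, and rose to 4991 without culture 9.

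**Figure D2:**
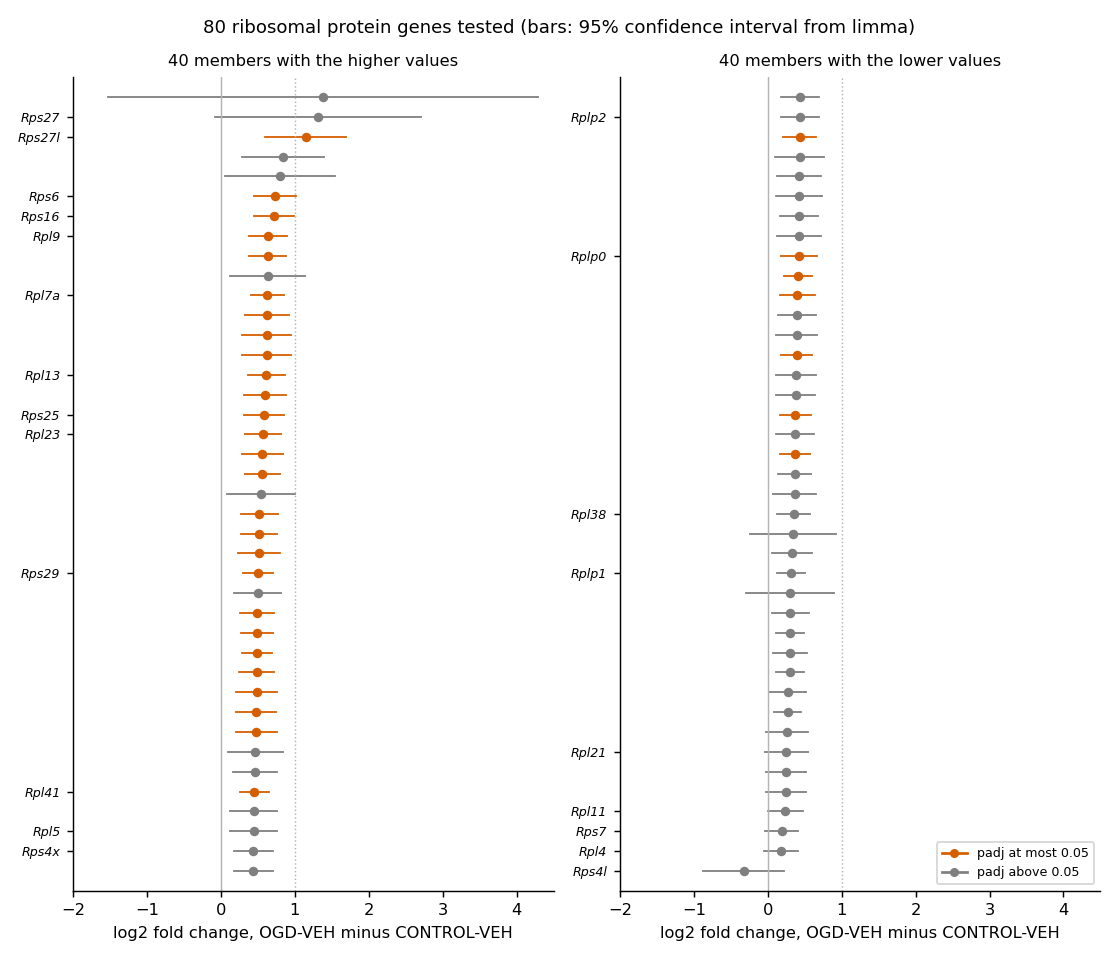
Log2 fold change of the 80 ribosomal protein genes (points) in OGD-VEH compared with CONTROL-VEH, with its 95% confidence interval from limma (bars), the higher values in the left panel and the lower in the right, with the names of members described culture by culture. Orange marks the 34 members with padj of at most 0.05. Of the 80 points, 79 lie to the right of 0, Rps4l to the left, and Rps27l is the 1 orange point beyond the dotted line at a log2 fold change of 1.

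Rps27l was the 1 member that met the DEG thresholds, which 4.09% of all genes met. It encodes a close relative of the small-subunit protein eS27 and is known as a p53 target gene. Rps27l lies at chr9:66946086-66949516 on the plus strand (GRCm38) and has 6 isoforms in the table, of which the protein-coding isoform of 499 bases held most of its signal. Its FPKM was 163, 142, 141 and 100.2 in the CONTROL-VEH cultures and 186, 333, 344 and 371 in the OGD-VEH cultures. Every OGD-VEH culture lay above every CONTROL-VEH culture, with culture 9 close to the highest control. Its log2 fold change was 1.15 ± 0.24 (SE, limma padj = 0.0372), a 2.26-fold difference of the means. Trp53, which encodes p53, was 40.04 ± 22.7 FPKM in CONTROL-VEH and 142 ± 26.3 in OGD-VEH (SD, n = 4), a log2 fold change of 2.0 ± 0.40 (SE, limma padj = 0.0347).

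Rps27, the closest relative of Rps27l, had a similar point estimate with a much larger error. Its FPKM was 3.22, 9.46, 1.29 and 6.01 in CONTROL-VEH and 8.04, 21.4, 9.41 and 6.04 in OGD-VEH, and the groups overlapped. A log2 fold change of 1.31 ± 0.61 (SE, limma padj = 0.161) was fitted. With its main isoform listed at 0, no level of the whole gene can be read from these values.

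Among the other small-subunit genes Rps6 and Rps16 had the highest log2 fold changes of those called. Rps6 encodes the subunit that S6 kinases phosphorylate downstream of mTOR, and lies at chr4:86854660-86857412 on the minus strand. Its FPKM was 113, 93.1, 108 and 98.4 in CONTROL-VEH and 139, 185, 177 and 186 in OGD-VEH. The groups did not overlap, culture 9 was the lowest of the OGD-VEH cultures, and the log2 fold change was 0.73 ± 0.12 (SE, limma padj = 0.0336). Rps16, at chr7:28350652-28353155 on the plus strand, encodes a small-subunit protein whose tail touches the tRNA at the decoding site. Its FPKM was 356, 285, 295 and 352 in CONTROL-VEH and 442, 553, 547 and 586 in OGD-VEH, again without overlap and with culture 9 lowest, a log2 fold change of 0.72 ± 0.12 (SE, limma padj = 0.0335). Pseudogenes named after Rps6 and Rps16 held 74.6% and 74.8% of the mean FPKM of gene and pseudogenes together. The values of both genes therefore depend on how reads were divided. Rps25, whose protein is needed by several viral internal ribosome entry sites, was at 1047, 853, 936 and 866 FPKM in CONTROL-VEH and 1196, 1374, 1296 and 1706 in OGD-VEH. Every OGD-VEH culture was above every CONTROL-VEH culture, and the log2 fold change was 0.58 ± 0.12 (SE, limma padj = 0.0357). Rps29, the most abundant member, was at 2853, 2389, 2837 and 2906 FPKM and 3384, 4139, 3935 and 4081 FPKM in these groups. The groups did not overlap, and culture 2 was the lowest control by a wide gap. For Rps29 the log2 fold change was 0.50 ± 0.09 (SE, limma padj = 0.0336).

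In the large subunit Rpl7a had the smallest p of all members. Rpl7a, at chr2:26910764-26913318 on the plus strand, encodes a protein of the large-subunit surface, and its introns host small nucleolar RNAs. Its FPKM was 667, 579, 666 and 590.4 in CONTROL-VEH and 829.8, 1039, 960.0 and 1052 in OGD-VEH. The lowest OGD-VEH culture was well above the highest control, and the log2 fold change was 0.63 ± 0.10 (SE, limma padj = 0.0282). Rpl9 was at 1366, 1071, 1230.2 and 1321 FPKM in CONTROL-VEH and 1595, 2018, 2038 and 2128 in OGD-VEH, without overlap, and its log2 fold change was 0.64 ± 0.11 (SE, limma padj = 0.0336). Rpl13 was at 182, 174, 163 and 147 and 229.9, 269.6, 233 and 292 FPKM, also without overlap, and its log2 fold change was 0.62 ± 0.11 (SE, limma padj = 0.0336). Rpl41 was at 2628, 2198, 2482 and 2306 and 2863, 3472, 3269 and 3568 FPKM. Its groups did not overlap, with culture 9 nearest to the controls, and its log2 fold change was 0.45 ± 0.09 (SE, limma padj = 0.0340). The smallest rises among called members were those of Rpl26 (0.37 ± 0.09), Rpl37 (0.37 ± 0.09), Rpl30 (0.39 ± 0.09), Rpl15 (0.40 ± 0.10), Rpl6 (0.40 ± 0.08) and Rplp0 (0.42 ± 0.11, log2 fold change ± SE), with limma padj between 0.0367 and 0.0485.

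The stalk proteins recruit the elongation factors to the large subunit. Rplp0, the base of the stalk, was at 733, 689, 765 and 744 FPKM in CONTROL-VEH and 808, 1023, 962 and 1150.3 in OGD-VEH, without overlap. Its log2 fold change was 0.42 ± 0.11 (SE, limma padj = 0.0485). Rplp1 and Rplp2, which form the dimers of the stalk, did not pass the threshold. Rplp1 was at 2263, 2039, 2160.1 and 2407 and 2408, 2952, 2712 and 2963 FPKM, with culture 9 level with the highest control, and its log2 fold change was 0.31 ± 0.08 (SE, limma padj = 0.0518). Rplp2 was at 1803, 1559, 1854 and 1809 and 1911, 2607, 2338 and 2675 FPKM, without overlap, and its log2 fold change was 0.43 ± 0.11 (SE, limma padj = 0.0503). Rpsa, a small-subunit protein also known as a laminin receptor, had a log2 fold change of 0.43 ± 0.11 (SE, limma padj = 0.0508).

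A list of 9 Mdm2-binding members was examined, which leaves out other known binders such as Rps27l and Rps25. Of these 9, Rpl23 and Rpl26 rose and 7 did not pass the threshold. Over all 80 members tested 42.5% rose, and over all genes 4.99%. Rpl23 was at 409, 365, 398 and 484 FPKM in CONTROL-VEH and 545, 617, 623 and 664 in OGD-VEH. The groups did not overlap, and the log2 fold change was 0.57 ± 0.10 (SE, limma padj = 0.0337). Rpl5 and Rpl11 form with 5S rRNA the particle that holds Mdm2 in check. Rpl5 was at 58.4, 55.5, 68.2 and 56.9 FPKM in CONTROL-VEH and 63.8, 87.0, 83.9 and 92.02 in OGD-VEH, where culture 9 lay below control culture 3, and its log2 fold change was 0.44 ± 0.14 (SE, limma padj = 0.0698). Rpl11 was at 436, 398, 339 and 438 and 436, 510.5, 499 and 446 FPKM, with culture 9 within the control range, and its log2 fold change was 0.24 ± 0.11 (SE, limma padj = 0.148). The other members of this list were Rps27 (above), Rps3 (0.37), Rps14 (0.42), Rps27a (0.49), which encodes a ubiquitin fusion, and Rps7 (0.19, log2 fold change), with limma padj from 0.0565 to 0.199.

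The subunit genes nearest to 0 were Rpl4 and Rps7. Rpl4, which lines the exit tunnel of the nascent chain, was at 603, 518, 584 and 645 FPKM in CONTROL-VEH and 596, 660.4, 650.0 and 767 in OGD-VEH. Culture 9 lay below 2 of the controls, and the log2 fold change was 0.18 ± 0.10 (SE, limma padj = 0.223). Rps7 was at 1575, 1453, 1471 and 1666 and 1500.2, 1807, 1709.6 and 2042 FPKM, with culture 9 below both of the higher controls, and its log2 fold change was 0.19 ± 0.10 (SE, limma padj = 0.199).

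The copies did not follow a single direction. Rps4l, a retrogene copy of the X-linked Rps4x at chr6:148354656-148355598, was the 1 member with a negative log2 fold change. It was at 38.0, 36.5, 30.7 and 17.8 FPKM in CONTROL-VEH and 27.8, 22.3, 24.2 and 20.4 in OGD-VEH. Control culture 4 was lower than every OGD-VEH culture, the groups overlapped and the log2 fold change was -0.33 ± 0.24 (SE, limma padj = 0.361). Rps4x itself was at 536, 477, 519 and 585 and 594, 737, 706 and 848 FPKM, without overlap, and its log2 fold change was 0.44 ± 0.12 (SE, limma padj = 0.0513). Rpl6l was at 73.7 ± 6.94 FPKM in CONTROL-VEH and 99.5 ± 15.5 in OGD-VEH (SD, n = 4), a log2 fold change of 0.42 ± 0.13 (SE, limma padj = 0.0678), beside 0.40 ± 0.08 (SE, limma padj = 0.0367) for its parent Rpl6. Rpl32l was listed at 0 in all CONTROL-VEH cultures and in OGD-VEH cultures 9, 10 and 12, with 4.51 FPKM in culture 11, so that 1 culture carried it past the filter. Its parent Rpl32 had a log2 fold change of 0.49 ± 0.09 (SE, limma padj = 0.0340). Reads of copies and parents can be exchanged in the estimation, which makes single values of a copy uncertain.

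**Figure D3:**
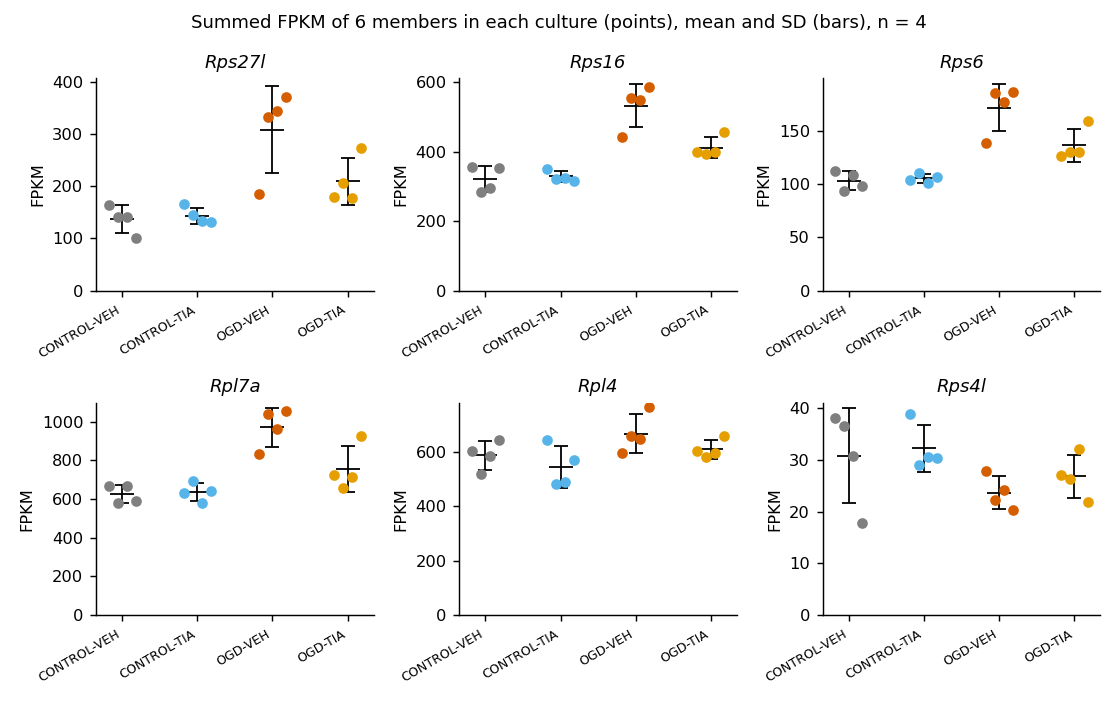
FPKM of 6 ribosomal protein genes in each culture (points), with the mean and SD of each group (bars, n = 4). Rps27l, Rps16, Rps6 and Rpl7a are higher in all 4 OGD-VEH cultures than in any CONTROL-VEH culture, whereas the groups overlap for Rpl4 and Rps4l. Pseudogenes named after Rps16 and Rps6 held more FPKM than these genes themselves.

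The size of the difference had little relation to abundance or length. Across 76 subunit genes, which are not independent of each other, the Spearman correlation of the log2 fold change was -0.16 with the mean level and 0.08 with the length of the most abundant isoform. The median length of that isoform was 487 bases over the members tested. Among genes that are not members, the median log2 fold change was 0.12 where the most abundant isoform was under 1000 bases (6683 genes) and 0.07 where it was of 3000 bases or more (4748 genes).

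In the presence of TIA no member passed the threshold after OGD, although most were higher. Between OGD-TIA and CONTROL-TIA, 0 of 80 members and 0.0% of the 16242 genes tested had a padj of at most 0.05 by limma. This 0 holds for limma on FPKM as set up here, since no count model was fitted, and 4 members were called with array quality weights and 4 with isoforms weighted by length. At an unadjusted p under 0.05, 49 members were higher and 0 lower, against 11.6% and 7.92% of all genes. The log2 fold change was above 0 for 77 of 80 members, against 55.8% of all genes, with a median of 0.24 (1.18-fold) over the members and 0.04 over all genes. In 32 members all OGD-TIA cultures lay above all CONTROL-TIA cultures, against 9.51% of all genes. The 3 members below 0 were Rpl21 (-0.24), Rps4l (-0.27) and Rpl32l, which was listed at 0 in 3 of the 4 OGD-TIA cultures.

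The members with the smallest p in this comparison were Rps18, Rpl3, Rpl9 and Rps16. Rps16 was at 350.4, 322, 325 and 316 FPKM in CONTROL-TIA and 399.9, 391, 399.9 and 455 in OGD-TIA. The groups did not overlap, culture 16 was far above the other OGD-TIA cultures, and the log2 fold change was 0.32 ± 0.07 (SE, limma padj = 0.111). Rpl9 was at 1411, 1216, 1275 and 1264 FPKM in CONTROL-TIA and 1594, 1570.3, 1518 and 1792 in OGD-TIA, without overlap, and its log2 fold change was 0.33 ± 0.07 (SE, limma padj = 0.111). Rps18 had a log2 fold change of 0.38 ± 0.07 (SE, limma padj = 0.108), and Rpl3, which reaches towards the peptidyl transferase centre, one of 0.34 ± 0.07 (SE, limma padj = 0.108). Rps27l was at 165, 144, 133 and 131 FPKM in CONTROL-TIA and 179, 207, 178 and 273 in OGD-TIA. All OGD-TIA cultures were above all CONTROL-TIA cultures, and the log2 fold change was 0.53 ± 0.15 (SE, limma padj = 0.148). Rps6 was at 104, 111, 101 and 107 and 126, 130.5, 130.1 and 159.7 FPKM, without overlap and with culture 16 highest, and its log2 fold change was 0.37 ± 0.09 (SE, limma padj = 0.128). Rpl7a was at 629.8, 691, 578 and 642 and 723, 656, 711 and 925 FPKM, with cultures 14 and 6 in overlap, and its log2 fold change was 0.24 ± 0.11 (SE, limma padj = 0.277).

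**Figure D4:**
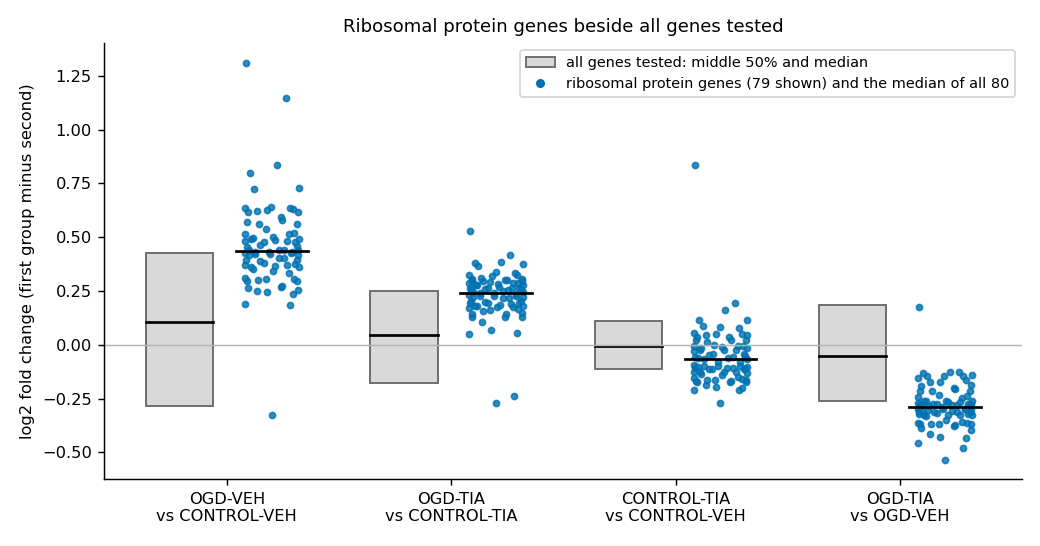
Log2 fold changes of the ribosomal protein genes (blue points, 79 shown, as Rpl32l, listed at 0 in most cultures, is left out) beside all genes tested (grey boxes from the lower to the upper quartile) in 4 comparisons, with the medians as black lines. The member medians are 0.44, 0.24, -0.06 and -0.29 and those of all genes 0.10, 0.04, -0.01 and -0.05, from left to right.

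Without OGD no member differed between TIA and vehicle at the threshold. Between CONTROL-TIA and CONTROL-VEH, 0 of 80 members and 0.0% of the 16170 genes tested passed limma padj of at most 0.05, and at an unadjusted p under 0.05 there were 1 higher and 7 lower members, against 1.81% and 2.03% of all genes. The log2 fold change was above 0 for 20 of 80 members, against 48.5% of all genes. The median was -0.06 over the members and -0.01 over all genes. The members with the smallest p included Rps2 (-0.21 ± 0.06, limma padj = 0.999), Rps20 (-0.17 ± 0.05, limma padj = 0.999) and Rpl31 (-0.27 ± 0.08, limma padj = 0.999). Rps29 was at 2949, 2612, 2668 and 2685 FPKM in the CONTROL-TIA cultures, which lay within the CONTROL-VEH range apart from culture 5.

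Among the OGD cultures nearly all members had a lower mean with TIA than without it, and none passed the threshold. Between OGD-TIA and OGD-VEH, 0 of 80 members and 0.0% of the 16351 genes tested had a limma padj of at most 0.05. With array quality weights 53 members, all lower, and 1540 of the 16351 genes were called. At an unadjusted p under 0.05, 43 members were lower and 0 higher, against 5.04% and 2.87% of all genes. The log2 fold change was below 0 for 79 of 80 members, against 56.7% of all genes, with a median of -0.29 (0.82-fold) over the members and -0.05 over all genes. The 1 member above 0 was Rps4l (0.17 ± 0.15). All OGD-TIA cultures lay below all OGD-VEH cultures in 10 members, against 2.51% of all genes. This comparison shares the OGD-VEH cultures with that of OGD-VEH and CONTROL-VEH, and the OGD-TIA cultures with that of OGD-TIA and CONTROL-TIA.

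Rpl23, Rpl41, Rpl38 and Rps13 had the smallest p within OGD. Rpl23 was at 455, 443, 443 and 520.5 FPKM in OGD-TIA, beside 545, 617, 623 and 664 in OGD-VEH. All OGD-TIA cultures were lower than all OGD-VEH cultures, and the log2 fold change was -0.39 ± 0.09 (SE, limma padj = 0.551). Rpl41 was at 2546, 2540.3, 2353 and 2754 FPKM in OGD-TIA, below every OGD-VEH value given before, and its log2 fold change was -0.37 ± 0.08 (SE, limma padj = 0.551). Rpl38, which is linked to the translation of Hox mRNAs in the embryo, was at 2620.5, 3128, 3121 and 3113 FPKM in OGD-VEH and 2403, 2416, 2533 and 2501 in OGD-TIA. Cultures 10, 11 and 12 were nearly level, culture 9 was well below them and still above all OGD-TIA cultures. Rpl38 had a log2 fold change of -0.28 ± 0.07 (SE, limma padj = 0.551), and Rps13 one of -0.48 ± 0.12 (SE, limma padj = 0.551). Rps27l, at 179, 207, 178 and 273 FPKM in OGD-TIA, overlapped OGD-VEH through cultures 9, 14 and 16, and its log2 fold change was -0.53 ± 0.24 (SE, limma padj = 0.551).

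Whether TIA changed the size of the OGD effect on the members was tested directly, as the interaction over all 16 cultures. None of the 80 members passed limma padj of at most 0.05, as none of the 16313 genes did (0.0%). With array quality weights 4 members and 217 of the 16313 genes were called. At an unadjusted p under 0.05 there were 13 members with a smaller OGD effect in the presence of TIA and 0 with a larger one, against 3.4% and 2.66% of all genes. The interaction was negative for 76 of 80 members, against 54.2% of all genes, with a median of -0.22 over the members and -0.04 over all genes. The 4 members with the smallest p were Rpl23 (-0.44 ± 0.13, limma padj = 0.722), Rps16 (-0.40 ± 0.14, limma padj = 0.722), Rpl21 (-0.49 ± 0.17, limma padj = 0.722) and Rps29 (-0.27 ± 0.10, limma padj = 0.722). Rpl21 was at 68.1, 74.9, 63.8 and 64.2 FPKM in CONTROL-VEH, 67.1, 91.3, 76.3 and 90.1 in OGD-VEH, 85.6, 71.4, 73.5 and 63.8 in CONTROL-TIA and 60.6, 59.8, 56.6 and 72.4 in OGD-TIA. The OGD-VEH cultures 10 and 12 were the highest, culture 9 lay within the controls, and OGD-TIA cultures 13, 14 and 15 lay below every CONTROL culture. For Rps27l the interaction was -0.62 ± 0.30 (SE, limma padj = 0.722).

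Ribosomal protein genes and copies that the symbol rule leaves out were examined in the same way. Of 9 such genes 8 were in the table, all 8 had a log2 fold change above 0 between OGD-VEH and CONTROL-VEH, 2 rose at padj of at most 0.05 and the median was 0.41. The 2 were Rps3a1 (0.55 ± 0.13, limma padj = 0.0449) and Rpl36a-ps1 (0.64 ± 0.12, limma padj = 0.0336). The latter is by its name a pseudogene of the member Rpl36a and is counted again among the pseudogenes described last. Rack1, a scaffold protein of the small subunit, had 0.45 ± 0.12 (SE, limma padj = 0.0525). Fau, which encodes a ribosomal protein fused to a ubiquitin-like domain, had 0.22 ± 0.16 (SE, limma padj = 0.353). In the presence of TIA the median of the 8 was 0.20 and 0 were called.

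Ribosome biogenesis genes, which act in the nucleolus to process rRNA and assemble subunits, had a median close to that of the members, as had the genes outside the symbol rule. Of 71 tested, 12 (16.9%, against 4.99% of all genes) rose and 0 fell between OGD-VEH and CONTROL-VEH, 64 had a log2 fold change above 0 (against 58.2% of all genes) and the median was 0.46. Examples were Nop58, a core protein of the particles that methylate rRNA (0.72 ± 0.13, limma padj = 0.0336), and the large-subunit assembly factors Rpf1 (0.998 ± 0.19, limma padj = 0.0338) and Brix1 (0.79 ± 0.15, limma padj = 0.0339). With TIA the median was 0.23 and 0 were called. Among 20 translation factors and other proteins whose mRNAs carry a TOP start, 4 rose and 0 fell, with a median of 0.26. They included Tpt1 (0.61 ± 0.12, limma padj = 0.0340), the ribosome-associated chaperone subunit Naca (0.45 ± 0.10, limma padj = 0.0383) and the elongation factor subunit Eef1d (0.65 ± 0.15, limma padj = 0.0423). With TIA their median was 0.17 and 0 were called.

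Of 17 genes that control TOP mRNAs, ribosome synthesis or p53, 6 (35.3%, against 4.99% of all genes) rose and 0 fell without TIA. The median was 0.22, and 0 were called with TIA (median 0.11). Eif4ebp1 and Eif4ebp2, inhibitors of cap-dependent translation, had log2 fold changes of 2.03 ± 0.35 (SE, limma padj = 0.0336) and 0.76 ± 0.16 (SE, limma padj = 0.0383). Of 15 genes of ribosome quality control, 1 rose (6.67%), a share near the 4.99% of all genes, with a median of 0.14 (0.07 with TIA, 0 called) beside 0.10 over all genes. This was Map3k20, which encodes the kinase ZAK that senses stalled ribosomes, at 2.72 ± 0.223 FPKM in CONTROL-VEH and 8.44 ± 3.78 in OGD-VEH (SD, n = 4), a log2 fold change of 1.46 ± 0.35 (SE, limma padj = 0.0449).

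Other large complexes were compared for their size of change, and their shares of genes called higher were near the 4.99% of all genes. Most of their genes still had a log2 fold change above 0 without TIA, against 58.2% of all genes. These were 65 of 78 mitochondrial ribosomal protein genes, 71 of 79 respiratory chain and ATP synthase genes and 33 of 35 proteasome genes. Between OGD-TIA and OGD-VEH, 12 of 78, 8 of 79 and 5 of 36 were above 0, in the same order. At an unadjusted limma p under 0.05, 10, 27 and 4 were lower there, against 5.04% of all genes. Among 78 mitochondrial ribosomal protein genes 5 (6.41%) rose and 0 fell without TIA, with a median of 0.22 (0.10 with TIA, 0 called). Mrps10 (0.52 ± 0.09, limma padj = 0.0336) and Mrps6 (1.03 ± 0.19, limma padj = 0.0337) had the smallest p. Among 79 subunits of the respiratory chain and ATP synthase 6 (7.59%) rose and 0 fell, with a median of 0.19 (0.08 with TIA, 0 called). Ndufb9 had the smallest p (0.36 ± 0.08, limma padj = 0.0400). Among 35 proteasome subunits 2 (5.71%) rose and 0 fell, Psma3 (0.37 ± 0.07, limma padj = 0.0347) and Psmd4 (0.42 ± 0.10, limma padj = 0.0456), with a median of 0.17 (0.06 with TIA, 0 called).

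**Figure D5:**
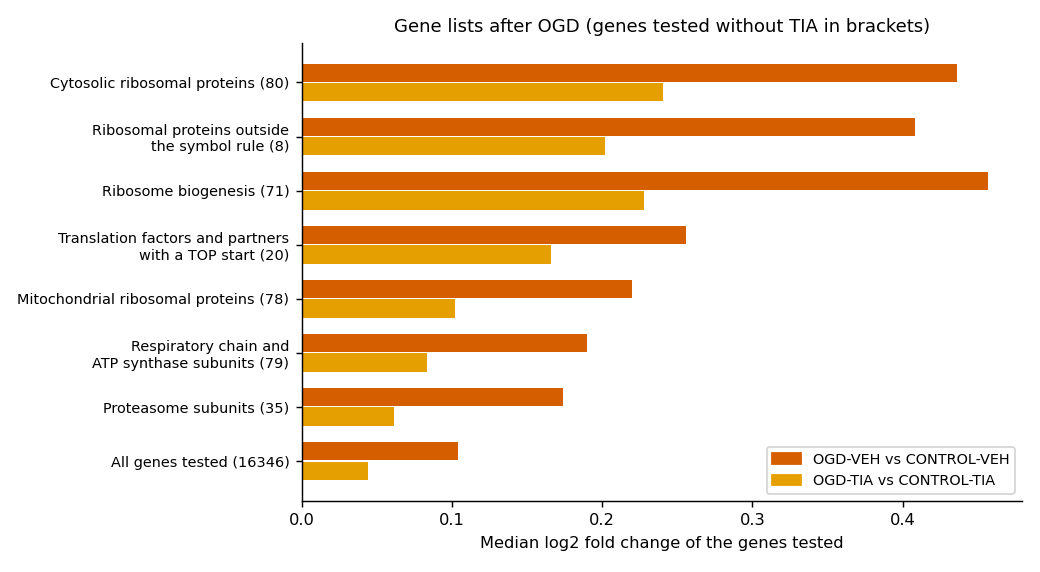
Median log2 fold change of the genes tested in each list, after OGD without TIA (dark bars) and with TIA (light bars), with the number of genes tested without TIA in brackets. Cytosolic ribosomal proteins (0.44 and 0.24) and ribosome biogenesis genes (0.46 and 0.23) have the longest bars, and all genes tested have 0.10 and 0.04.

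The mouse genome holds many processed pseudogenes of ribosomal protein genes, and reads can be divided between them and their parents. The deposited values hold 283 pseudogenes named after 58 of the members, and 95 of these passed the filter for OGD-VEH against CONTROL-VEH. There 12 were called higher and 1 lower, against 4.99% and 3.45% of all genes. A log2 fold change above 0 was found for 75, against 58.2% of all genes, and the median was 0.45. Their summed FPKM was 16320 ± 1140 (SD, n = 4) in CONTROL-VEH, 15650 ± 1050 in CONTROL-TIA, 21930 ± 2400 in OGD-VEH and 18410 ± 1350 in OGD-TIA, which was 27.2% of the sum of the members over all cultures. For 18 members the pseudogenes held more than the member itself, such as Rpl17 (94.6% in 11 pseudogenes), Rpl23a (86.1% in 12) and Rps6 (74.6% in 4). Rpl21 (75.9% in 13), Rps16 (74.8% in 2) and Rps13 (66.2% in 6) were also among them. When each member was summed with the pseudogenes that bear its name, 38 of 80 members rose between OGD-VEH and CONTROL-VEH, 33 of them among the 34 called without the pseudogenes. In that fit 1390 of 16346 genes were called.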

How the data were processed

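RNA was sequenced from 16 cultures of PNCs, 4 biological replicates per group. Stranded libraries from poly(A) RNA were read for 50 bases from a single end. A company working for the authors checked reads with FastQC, mapped them with STAR to GRCm38, estimated isoform expression with eXpress and deposited FPKM values scaled between libraries by TMM. Tool versions were not given in the sources used here. In genes with a single isoform of over 600 bases the lowest FPKM values are multiples of the worth of 1 read, which puts the depth at 20.5 to 26.1 M reads per culture. This figure carries the TMM scaling, so it is not the same measure as the 18 to 23 M aligned reads per the labels.

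Here 74 rows without an identifier (0.044% to 0.0594% of the summed FPKM) were left out and the FPKM of isoforms were summed per gene symbol. limma 3.58.1 (R 4.3.3, trend) was fitted to log2(FPKM + 0.1) of the cultures of each pair of groups, and to all 16 for the interaction, for genes that averaged 0.5 FPKM or more, with Benjamini-Hochberg adjustment over all of them. FPKM are not counts, so no count model was used, unlike in the study. The script was tested on simulated data.

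The members, the gene lists and the tests were chosen with earlier results of these data known. Members were named if they were the 6 highest and 6 lowest called after OGD without TIA, the 4 with the smallest p in each other comparison, copies with their parents, 9 Mdm2 binders, stalk proteins, Rpsa and Rps6, or the 4 highest and 4 lowest in level. Of the other lists these were at most 3 genes with the smallest p, plus Rack1, Rps3a1 and Fau. Some genes that met this rule are not reported here. The members summed with their pseudogenes were an alternative added after the data were seen. Promoter sequences came from RefSeq (GRCm38.p6).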

Additional observations from a re-analysis of the deposited data

Results flagged for a closer look

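In groups of 4 cultures the gap between the highest or lowest culture and its neighbour was compared with the range of the group, for the members given culture by culture and the summary values of all members. Chance picks out about 1 in 20 groups. Of 96 such checks 8 stood out. OGD-TIA culture 16 was above the other 3 cultures of its group for Rps16 (454.8 FPKM against 391.5 to 399.9), Rps6 (159.7 against 126.3 to 130.5), Rplp0 (903.9 against 783.1 to 790.5) and Rpl23 (520.5 against 443.3 to 454.9). OGD-VEH culture 9 was below its group for Rpl38 (2620 FPKM against 3113 to 3128). CONTROL-TIA culture 5 was above its group for Rpl13 (168.7 FPKM against 135.0 to 139.8) and Rps4l (38.97 against 29.11 to 30.48). CONTROL-VEH culture 2 was below its group for Rps29 (2389 FPKM against 2837 to 2906). Members measured in 1 culture are not independent.

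The pseudogenes named after members are outside the comparisons of the members. Their summed FPKM had a mean of 21930 in OGD-VEH, above all CONTROL-VEH cultures (15000 to 17620).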

How the results depend on the processing

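Between OGD-VEH and CONTROL-VEH the number of members called was 34, with 1380 of all 16346 genes called. It was 28 to 43 under 6 alternatives (pseudocounts of 1 and 0.01, a filter at 2 FPKM, median-ratio scaling, equal summed FPKM and robust empirical Bayes), which called 1187 to 1609 genes. The number of members was 0 with no filter on low values (10 of 53679 symbols called) and 0 with the most abundant isoform in place of the sum (20 of 15841). It was 61 with isoforms weighted by length (4160 of 16539 genes called), 74 with array quality weights (6344 of 16346) and 64 with all 16 cultures in one fit (4619 of 16346). Leaving out 1 culture gave 0 to 71. Members summed with their pseudogenes, added after the data were seen, gave 38 (1390 of 16346 genes called). The log2 fold change was above 0 for 78 to 80 members in all 21 fits. Rps27l kept its DEG status where any member was called, and no member was a DEG with no filter, with the most abundant isoform or without any 1 of the cultures except 9. Rpl11 reversed to -0.78 (limma padj = 0.639) with the most abundant isoform. Between OGD-TIA and CONTROL-TIA 4 members were called with isoforms weighted by length and 4 with array quality weights. Array quality weights also gave 53 lower members between OGD-TIA and OGD-VEH and 4 in the interaction. Leaving out 1 culture gave 0 members in these comparisons. The cause of these shifts was not tested. The median of all genes after OGD without TIA was 0.10 as deposited, 0.02 with median-ratio scaling and 0.03 with equal summed FPKM, and that of the members 0.44, 0.35 and 0.36. No paired analysis was possible because the cultures are numbered 1 to 16 across the groups and share no replicate number. FPKM without counts and the division of reads among isoforms and pseudogenes limit single values.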
